A study of Mus musculus with 8 samples.

Results

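The uroplakins are the membrane proteins of the urothelium, and 5 uroplakin genes (Upk1a, Upk1b, Upk2, Upk3a and Upk3b) were chosen by symbol from the 36333 genes listed in a table of the ventral prostate. The lobes came from 4 hSKP2-KI and 4 WT mice, all of the FVB/N strain and 12 months of age, with 1 library of poly-A RNA for each mouse. The hSKP2-KI mice carry a P2A-human SKP2 coding sequence knocked into exon 1 of the endogenous mouse probasin gene, so that the probasin promoter, which is active in prostate epithelium, drives SKP2, a subunit of a ubiquitin ligase that targets the cell cycle inhibitor p27. WT mice carry no insertion, and which of the hSKP2-KI lines the sequenced mice came from is not given in the sources used here. Values are TPM, a measure of transcript abundance in which reads on a gene are divided by transcript length and each library is scaled to a total of 1000000, so that levels of different genes can be set side by side.

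In the bladder, the tetraspanins Upk1a and Upk1b join partners that cross the membrane once in the endoplasmic reticulum: Upk1a pairs with Upk2, and Upk1b pairs with Upk3a or Upk3b. The pairs assemble in post-Golgi vesicles into the crystalline plaques of the asymmetric unit membrane, which covers the apical face of umbrella cells and forms part of the barrier to urine. Upk3b is also made by mesothelial cells, and the urethra and the bladder neck, which are lined by urothelium, lie next to the prostate lobes.

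All 5 genes have positions in the RefSeq annotation of GRCm38.p6, the build that the submitters' processing notes name as mm10 and GRCm38. Upk1a (Entrez 109637) lies at chr7:30603092-30612734, Upk1b (22268) at chr16:38773182-38800203 and Upk2 (22269) at chr9:44452715-44454767. Upk3a (22270) lies at chr15:85017141-85022560, where RefSeq also places the lncRNA Gm52194 (chr15:85017144-85018936), which is not analysed here, and reads of overlapping genes cannot be told apart where strand was not used. Upk3b (100647) lies at chr5:136038496-136044993, beside its relative Upk3bl (69665) at chr5:136057259-136076695. The members are not near-identical copies, since the longest run of bases shared exactly by any pair of their transcripts, Upk3bl included, was 15 bases.

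The 250 bases before the RefSeq start of 3 members could be read, and those of the most abundant member (Upk1a) and of the member with the most uneven levels (Upk3a) are shown because these genes are the extremes of the members in level and in evenness. Each is given 5′ to 3′ on the strand of its gene, at chr7:30612735-30612984 (minus strand) for Upk1a and chr15:85016891-85017140 (plus strand) for Upk3a, in GRCm38.p6. Capitals mark matches to 6 motifs searched on both strands: the core promoter motif TATAAA, its variant TATATA, the GATA site AGATAA, the androgen receptor motif TGTTCT, the GC box GGGCGG and the nuclear receptor motif AGGTCA.
Upk1a: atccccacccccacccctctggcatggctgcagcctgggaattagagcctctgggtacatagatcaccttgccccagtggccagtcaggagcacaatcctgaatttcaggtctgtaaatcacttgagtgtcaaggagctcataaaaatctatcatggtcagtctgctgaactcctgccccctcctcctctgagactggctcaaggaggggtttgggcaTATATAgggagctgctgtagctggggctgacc
Upk3a: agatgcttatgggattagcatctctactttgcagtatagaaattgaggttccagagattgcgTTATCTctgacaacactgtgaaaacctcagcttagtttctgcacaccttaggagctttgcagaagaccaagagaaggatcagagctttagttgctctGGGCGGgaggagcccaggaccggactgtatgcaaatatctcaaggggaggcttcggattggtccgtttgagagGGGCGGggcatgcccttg
The Upk1a window held 1 match, a TATATA that begins 32 bases before the start, and 5.25% of the windows of the same length of 32851 promoters hold these letters on either strand. The Upk3a window held GGGCGG at 91 and 18 bases before the start (32.7% of windows hold it) and AGATAA on the opposite strand at 188 bases before the start (9.99% of windows), which reads TTATCT in the printed strand. The Upk3b window (chr5:136038246-136038495) held AGGTCA at 155 bases before the start (14.0% of windows). The letters TGTTCT, held by 16.1% of all windows, and the core promoter motif TATAAA, held by 12.4%, were in none of the 3. These matches describe letters and do not show binding.

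One library, hSKP2-KI replicate 4, is shown apart, and the members are also given without it. It was the highest of the 8 libraries in 4 of 5 skeletal muscle markers and in 3 of 3 adipocyte markers. Its summed adipocyte TPM was 564 against at most 389.8 in the others. The share of all genes for which this library was the highest was not counted. The entry of the mouse gene Skp2 had a TPM of 37.3 to 60.6 in hSKP2-KI and 1.05 to 2.27 in WT libraries. Reads were mapped to the mouse genome, and the insert is human SKP2. Reads of the insert and of the endogenous mouse gene therefore cannot be told apart in this entry. Pbsn, the gene that received the insertion, had 93.0 to 174 in hSKP2-KI and 3980 to 9232 in WT libraries, so the Skp2 and Pbsn entries both separated the libraries by label. The ventral lobe markers Sbp, Sbpl and Spink1 were high in every library, and 12363 to 13513 genes reached a TPM of 1 per library. TPM keeps no read depth, so no counting error can be given.

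The uroplakin genes were listed at very unequal levels, and the 3 members that could be tested were higher in hSKP2-KI than in WT prostates. Upk1a lay among the most abundant genes of the gland in both genotypes and rose by a modest amount, Upk1b and Upk2 rose from low levels by several fold, Upk3a reached a TPM of 1 in 1 hSKP2-KI library, and Upk3b did so in 2. The 13080 genes that reached a TPM of 1 in 4 or more libraries were fitted by limma on the log2(TPM + 1) scale, with Benjamini-Hochberg adjustment over all 13080. Of the 5 members, 3 passed this minimum and 2 (Upk3a and Upk3b) did not. The 3 tested members were higher in hSKP2-KI at an adjusted p under 0.05, where 33.9% of all tested genes were called, 32.7% as higher and 1.23% as lower. They also had every hSKP2-KI library above every WT library, as had 34.0% of all tested genes. Upk2 reached 1 in 4 of 4 hSKP2-KI and 3 of 4 WT libraries. The hSKP2-KI libraries alone thus met the minimum for Upk2, and the WT libraries alone would not have. With no minimum on TPM, Upk2 was still called higher (limma adjusted p = 0.0298).

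The whole scale moved between the genotypes: the median log2 difference over the tested genes was 0.23, and the summed TPM of Sbp, Sbpl and Spink1 was 321196 to 343438 in hSKP2-KI and 404156 to 458469 in WT libraries. Each member is therefore also given after median-ratio scaling, which divides each library by its median ratio to a reference library and brings that median to -0.0071. On that scale 2 of the 3 tested members (Upk1b and Upk2) were called higher, where 6.92% of all tested genes were called higher and 4.25% lower, and these 2 again had no overlap, as had 10.3%. Fewer or more uroplakin-expressing cells and less or more RNA per cell cannot be told apart in bulk tissue.

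Of the tetraspanins, Upk1a, the partner of Upk2 and the receptor for the fimbriae of uropathogenic bacteria in the bladder, was by far the most abundant member. Its TPM was 918, 983, 735 and 651 in hSKP2-KI replicates 1 to 4, and 390.0, 581, 623 and 648 in WT replicates 1 to 4. The groups touched without overlapping, since the lowest hSKP2-KI library (replicate 4, 650.6) lay just above the highest WT library (replicate 4, 647.7). It ranked 91st to 140th among all genes of the hSKP2-KI libraries and 111th to 199th in WT libraries, so it was an abundant transcript of the gland with and without the knock-in.

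Mean Upk1a TPM was 822 ± 155 (SD, n = 4) in hSKP2-KI and 560.5 ± 117 (SD, n = 4) in WT, a ratio of 1.47. The log2 difference was 0.56 (95% interval 0.18 to 0.94, limma adjusted p = 0.0316), and it was 0.66 without hSKP2-KI replicate 4 (adjusted p = 0.0252), where 22.0% of all tested genes were called higher. After median-ratio scaling the groups overlapped (579 to 886 in hSKP2-KI and 471 to 697 in WT) and the difference was 0.29 (interval -0.08 to 0.66, limma adjusted p = 0.298). The call also ended without a minimum on TPM (adjusted p = 0.0829) and without any one of WT replicate 1 (0.39, adjusted p = 0.0714), hSKP2-KI replicate 1 (0.50, adjusted p = 0.0681) or hSKP2-KI replicate 2 (0.47, adjusted p = 0.0785). Whether Upk1a was called therefore turned on the scale, the minimum and single libraries.

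Upk1b, the tetraspanin that escorts Upk3a and Upk3b and is also made in other stratified and lining epithelia, was lower in level and differed more. Its TPM was 43.8, 26.9, 20.9 and 43.2 in hSKP2-KI replicates 1 to 4, and 6.33, 13.3, 9.79 and 12.8 in WT replicates 1 to 4. The groups did not overlap, and replicates 1 and 4 were about equally high, so replicate 4 was not exceptional for this gene. The means were 33.7 ± 11.6 and 10.5 ± 3.19 (SD, n = 4 each), a ratio of 3.20, or 2.90 without hSKP2-KI replicate 4.

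The log2 difference of Upk1b was 1.57 (95% interval 1.00 to 2.14, limma adjusted p = 0.00279). It was 1.43 without hSKP2-KI replicate 4 (adjusted p = 0.00769) and 1.32 after median-ratio scaling (adjusted p = 0.0121), and limma called it with both changes together (1.19, adjusted p = 0.0339), where 4.10% of all tested genes were called higher. The groups also stayed apart on that scale, at 19.1 to 41.1 in hSKP2-KI and 7.65 to 13.5 in WT.

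Of the partners that cross the membrane once, Upk2, which pairs with Upk1a, was near the minimum in WT. Its TPM was 4.79, 4.01, 3.64 and 13.6 in hSKP2-KI replicates 1 to 4, and 1.64, 1.67, 0.983 and 1.58 in WT replicates 1 to 4. Every hSKP2-KI library lay above every WT library, and replicate 4 lay far above the other hSKP2-KI libraries. The means were 6.51 ± 4.75 in hSKP2-KI and 1.47 ± 0.325 in WT (SD, n = 4 each), a ratio of 4.44. Without hSKP2-KI replicate 4 the mean was 4.15 ± 0.591 (SD, n = 3) and the ratio 2.83.

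The log2 difference of Upk2 was 1.44 (95% interval 0.76 to 2.12, limma adjusted p = 0.00764) and, without hSKP2-KI replicate 4, 1.06 (interval 0.72 to 1.41, adjusted p = 0.00334). The single library thus raised the size of the difference and widened its interval, and the other 3 hSKP2-KI libraries gave a call by themselves. After median-ratio scaling the difference was 1.25 (limma adjusted p = 0.0314), and 0.88 with replicate 4 also left out (adjusted p = 0.0165). The added 1 in log2(TPM + 1) makes these differences smaller than the ratio of TPM for genes at such low levels.

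**Figure D1:**
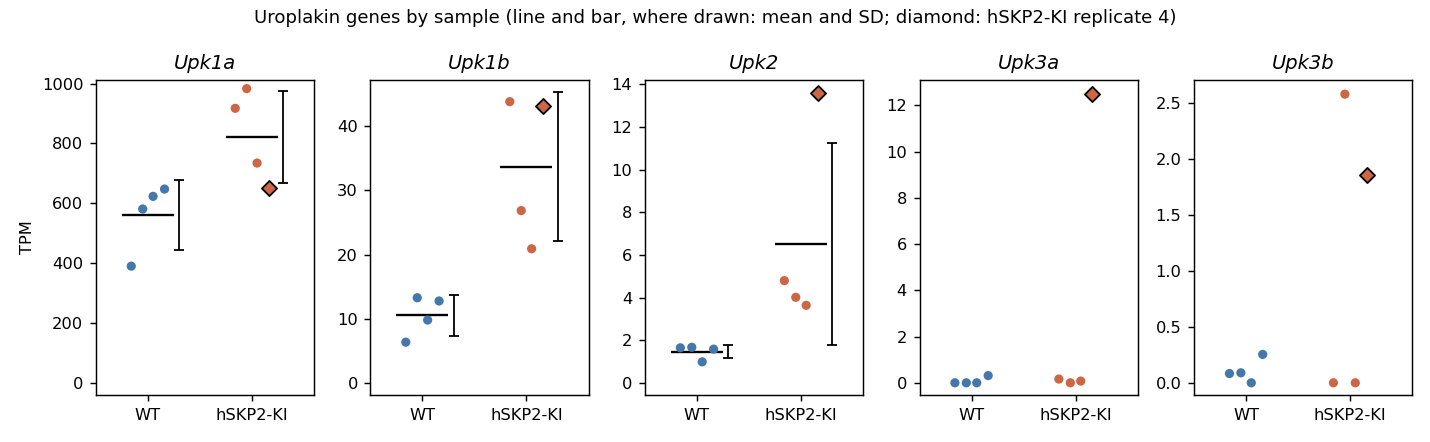
TPM of each uroplakin gene by library, in 1 panel per gene with its own linear axis, for 4 WT and 4 hSKP2-KI prostates, with hSKP2-KI replicate 4 drawn as a diamond. Lines and bars give mean and SD for Upk1a, Upk1b and Upk2, whose groups did not overlap; Upk3a stood at 12.5 in replicate 4 alone.

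**Figure D2:**
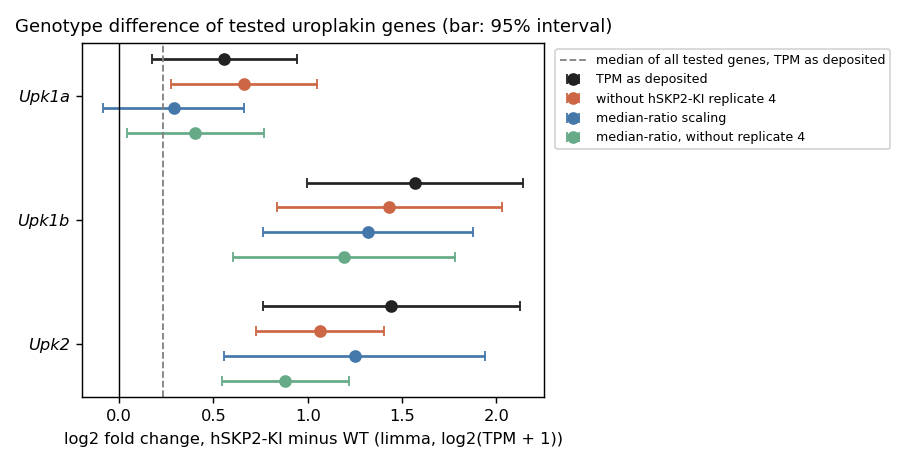
Log2 differences of hSKP2-KI minus WT with 95% intervals for Upk1a, Upk1b and Upk2, as deposited, without hSKP2-KI replicate 4, after median-ratio scaling, and with both changes, with a dashed line at the median of all tested genes (0.23). The interval of Upk1a crosses 0 after median-ratio scaling (-0.08 to 0.66), and those of Upk1b and Upk2 stay above 0 in all 4 fits drawn.

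Upk3a, the plaque subunit that pairs with Upk1b and is widely used as a marker of urothelium, was listed at a TPM of 0.161, 0, 0.0737 and 12.5 in hSKP2-KI replicates 1 to 4. In WT replicates 1 to 4 it was listed at 0, 0, 0 and 0.312. Only hSKP2-KI replicate 4 reached a TPM of 1, and the other 7 libraries of both genotypes lay in the same low range. The mean log2 difference over all libraries was 0.92 (two-sided exact permutation p = 0.543, where the smallest p that 70 assignments allow is 0.0286), and without replicate 4 it was 0.0081. After median-ratio scaling it was 0.87 (exact permutation p = 0.543). Upk3a therefore did not pass as a genotype difference, and its high value belongs to 1 mouse.

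Replicate 4 was the highest of the 8 libraries in 3 of 9 vesicle traffic genes and 3 of 7 urothelial transcription factors. It was also the highest in 4 of 7 urothelial differentiation and surface genes. It was the lowest hSKP2-KI library in 0, 1 and 2 genes of these lists. Of the 4 proximal luminal and urethral genes reported here, it was the highest in 1. The share of all genes with replicate 4 highest was not counted, so these counts have no background to be set against. Krt20, a keratin of umbrella cells, had a TPM of 2.78 in hSKP2-KI replicate 4 and at most 0.55 elsewhere, and Grhl3, a transcription factor of umbrella cell differentiation, had 0.986 against at most 0.123. Snx31, a sorting nexin that binds uroplakins, had 0.592, 0.409, 0.285 and 2.85 in hSKP2-KI replicates 1 to 4 and at most 0.0301 in WT. Snx31 thus resembled Upk2 in being higher in all hSKP2-KI libraries and highest in replicate 4.

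Among 14361 genes that reached a TPM of 1 in some library, Upk3a ranked second by how far replicate 4 exceeded the highest other library (3.36 on the log2(TPM + 1) scale). Only Sprr1a, a precursor of the cornified envelope, exceeded it (38.7 against at most 1.20), and Sptssb, Aqp3 and Sprr2a1, with a TPM of 9.70, 6.40 and 5.42 in replicate 4, followed. Upk2 ranked 15th with an excess of 1.33, while Upk1b (rank 4313), Upk3b (rank 11202) and Upk1a (rank 13110) were no higher in replicate 4 than in another library. A library with a few genes more than 2 log2 units above all others was not unusual, since hSKP2-KI replicates 1 to 4 had 5, 7, 0 and 6 such genes and WT replicates 1 to 4 had 0, 1, 1 and 2.

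Markers of tissue outside the lobe moved with the high Upk3a value in part. Summed skeletal muscle TPM was 391, 363, 256 and 424 in hSKP2-KI replicates 1 to 4 and 161 to 298 in WT, and most of each sum was Acta1, which was lower in replicate 4 (305) than in replicates 1 and 2 (370.0 and 350.5). Tnnt3, a fast muscle troponin, had 26.5 in replicate 4 but 12.0 in WT replicate 2, in which Upk3a was listed at 0. Ckm, Mylpf and Myh1 were also highest in replicate 4, at 47.1, 19.7 and 25.8. Their values in WT replicate 2 were 34.0, 11.4 and 12.0. Summed adipocyte TPM was 564 in replicate 4 and 389.8 in WT replicate 2. Seminal vesicle markers were at or near 0 (0 of 6 reached a TPM of 1, with a summed TPM of 0 in replicate 4 and at most 0.656 in any library). The part of muscle, fat or urethral tissue in the Upk3a value was not tested.

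**Figure D3:**
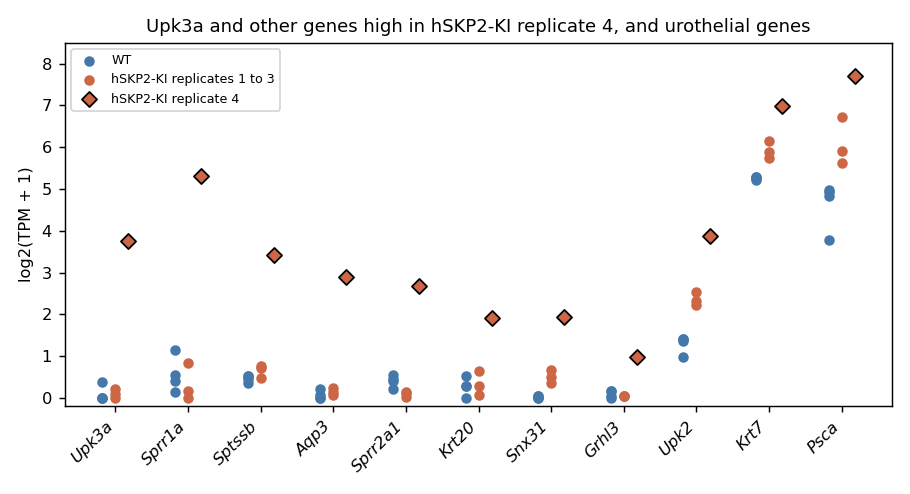
Level of 11 genes in each library on the log2(TPM + 1) scale, with WT libraries, hSKP2-KI replicates 1 to 3 and hSKP2-KI replicate 4 (diamonds) side by side. Upk3a, Sprr1a, Sptssb, Aqp3 and Sprr2a1 stand high in replicate 4 alone (a TPM of 12.5 for Upk3a, against at most 0.312 elsewhere), whereas Upk2, Snx31, Krt7 and Psca are above WT in all 4 hSKP2-KI libraries. Every gene drawn had its highest level in replicate 4. Other genes of the urothelial lists are not drawn, and of these Krt4, Krt13 and Foxa1 were lowest among hSKP2-KI libraries in replicate 4.

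Upk3b, a partner of Upk1b that is found in mesothelium as well as urothelium, was listed at a TPM of 0, 2.58, 0 and 1.86 in hSKP2-KI replicates 1 to 4. In WT replicates 1 to 4 it was listed at 0.0829, 0.0894, 0 and 0.254. The hSKP2-KI libraries split, with replicates 2 and 4 above all WT libraries and replicates 1 and 3 at 0. The log2 difference was 0.70 (two-sided exact permutation p = 0.429), and 0.63 after median-ratio scaling (exact permutation p = 0.429), so no genotype difference was detected. It was 0.47 without hSKP2-KI replicate 4, 0.36 without replicate 2, and 0.98 without either replicate 1 or replicate 3, with exact permutation p between 0.286 and 0.857. Upk3bl, its relative, stayed at or under 0.166 and was listed at 0 in 5 libraries.

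Mesothelial markers moved with Upk3b in part. The 9 markers summed to 6.65 to 16.2 in hSKP2-KI and 3.53 to 6.13 in WT libraries, and Muc16, Bnc1 and Lrrn4 reached a TPM of 1 in none. Msln, which encodes mesothelin, had a TPM of 4.52, 7.77, 2.08 and 3.53 in hSKP2-KI replicates 1 to 4 and at most 0.652 in WT. Msln was highest in replicate 2, as was Upk3b, but it was also high in replicate 1, where Upk3b was listed at 0. Of the 9 markers, 4 (Wt1, Lrrn4, Gpm6a and Cldn15) were higher in replicates 2 and 4, the libraries with Upk3b, than in replicates 1 and 3, and the other 5 (Msln, Muc16, Calb2, Bnc1 and Rspo1) were not. This order was not particular to mesothelial markers. It was also seen in 4 of 4 basal epithelial, 3 of 3 adipocyte and 3 of 3 endothelial genes. Fewer followed it among general epithelial (0 of 5), skeletal muscle (0 of 5), smooth muscle (1 of 5) and fibroblast genes (1 of 4). How many of all genes had this order was not counted, so no list can be set against a background share. Of the 4 mesothelial markers tested, 3 were higher (Msln, Wt1 and Cldn15), where 32.7% of all tested genes were called higher. For these 3 the hSKP2-KI libraries alone met the minimum, and the WT libraries alone would not have. Being tested was thus tied to being high in hSKP2-KI. With no minimum on TPM, Msln was still called (limma adjusted p = 0.00889), and Wt1 (0.0508) and Cldn15 (0.07) were not. After median-ratio scaling only Msln was higher, where 6.92% of all tested genes were. Without hSKP2-KI replicate 4 only Msln was higher, where 22.0% were. Calb2 was then lower (log2 difference -0.81, limma adjusted p = 0.0168), where 126 of 13080 tested genes were called lower. For Calb2 the WT libraries alone met the minimum, and the library left out had its highest hSKP2-KI value (2.23, others at most 0.740). The part of mesothelium in the Upk3b values was not tested.

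The proportions of the members are also given, and they restate the levels above in another form. Upk1a made up 97.5% to 98.3% of the summed uroplakin TPM in WT libraries, and 94.95%, 96.7%, 96.8% and 90.1% in hSKP2-KI replicates 1 to 4. The TPM of Upk1a divided by that of Upk1b was 20.9, 36.6, 35.1 and 15.0 in hSKP2-KI replicates 1 to 4, and 61.6, 43.8, 63.7 and 50.8 in WT replicates 1 to 4. These ratios, which no scaling of a library can change, did not overlap between the genotypes (medians 28.0 and 56.2), so the tetraspanins were in less unequal amounts in every hSKP2-KI library. Upk1a over its partner Upk2 was 191, 245, 202 and 47.9 in hSKP2-KI and 237, 349, 634 and 410.2 in WT, and here hSKP2-KI replicate 2 lay above WT replicate 1. Upk1b over Upk2 overlapped between the genotypes, at 3.18 to 9.14 in hSKP2-KI and 3.86 to 9.95 in WT. Transcripts of Upk1a therefore exceeded those of the Upk2 gene by more than an order of magnitude in all 8 libraries. The ratios were not tested, and how many other pairs of genes separate the genotypes in this way was not counted. The lower ratio of Upk1a to Upk1b follows from their log2 differences (0.56 and 1.57) and is not a separate result.

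**Figure D4:**
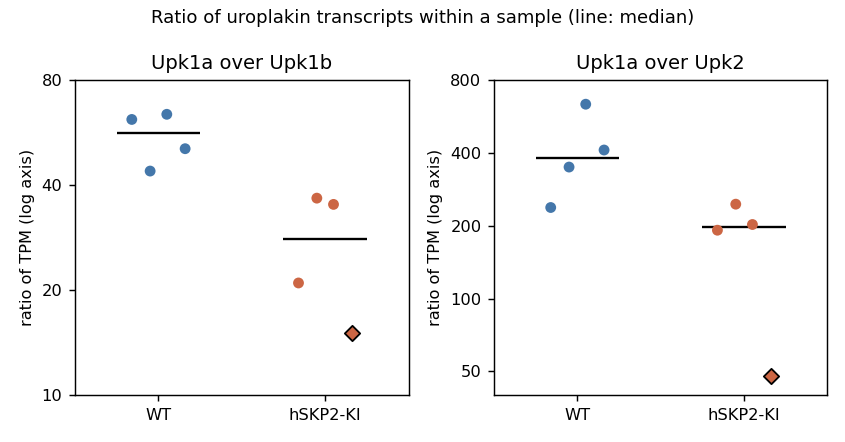
Ratios of TPM of Upk1a over Upk1b and of Upk1a over Upk2 within each library, on log axes, with the median of each genotype as a line and hSKP2-KI replicate 4 drawn as a diamond. Upk1a over Upk1b is lower in every hSKP2-KI library (15.0 to 36.6) than in every WT library (43.8 to 63.7), whereas Upk1a over Upk2 overlaps between the genotypes.

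The 5 genes did not share 1 pattern over the 8 libraries. After each gene was centred on its own mean log2(TPM + 1), Upk1b was the 58th nearest of 14360 genes to Upk2 by root mean square difference (0.46), Upk2 was the 140th nearest to Upk1b, and Upk2 was the 16th nearest to Upk3a (0.72). Upk1a and Upk3b had no member nearer than rank 7090. This measure favours genes with a like size of change, and it is a description over 8 libraries that share 2 genotypes. For Upk3a, which was high in hSKP2-KI replicate 4 alone, it favours any gene that is high in that library.

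The genes nearest to each member are named without regard to function. Those nearest to Upk1b were Aspa, Car2, Tbx1, Slc39a4 and Ccl21a (0.17 to 0.23). Prss32, Crym, Uox, Snx31 and Sphk1 were nearest to Upk2 (0.27 to 0.32), and of these Snx31 is on the vesicle traffic list. Traf5, Casq2, Nrm, Rasl12 and Arhgef6 were nearest to Upk1a (0.10 to 0.13). Sptssb, Aqp3, Sprr2a1, Sprr1a and Cidea were nearest to Upk3a (0.29 to 0.61). Upk3a was high in hSKP2-KI replicate 4 alone, so the genes nearest to it are high there by construction. Lrrc17, Scgb1a1, Cd300lg, Ucp3 and Lhfpl2 were nearest to Upk3b (0.28 to 0.35).

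Genes that carry uroplakins to the surface were set beside the members. Of 9 vesicle traffic genes, 7 were tested and 5 were higher (Rab27b, Rab11a, Rab8a, Mal and Vti1b), where 32.7% of all tested genes were called higher. The median log2 difference of the 7 was 0.32 against 0.23 over all tested genes. After median-ratio scaling only Mal of the 7 was called, where 6.92% of all tested genes were called higher. Mal, a raft protein that takes part in apical delivery of uroplakin vesicles, had a TPM of 21.2, 18.8, 28.7 and 39.8 in hSKP2-KI replicates 1 to 4 and 9.36, 15.3, 9.56 and 11.1 in WT replicates 1 to 4. Its groups did not overlap, and its log2 difference was 1.16 (limma adjusted p = 0.00455), or 0.90 after median-ratio scaling (adjusted p = 0.0222). Rab27b, a GTPase of fusiform vesicles, had a log2 difference of 0.41 (limma adjusted p = 0.0106) that was 0.15 after median-ratio scaling (adjusted p = 0.348). Rab11a had 0.21 as deposited (limma adjusted p = 0.0476), lost its call with any single library left out (adjusted p 0.0531 to 0.121) or with no minimum on TPM (0.055), and turned to -0.052 after median-ratio scaling. The count was therefore 4 of 7 without hSKP2-KI replicate 4, where 22.0% of all tested genes were called higher.

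Of 7 urothelial transcription factors, 6 were tested and 2 were higher, Gata3 and Klf5, which are also epithelial regulators in other organs, with a median of 0.27 against 0.23 over all tested genes. The share of this list called higher was close to the 32.7% of all tested genes. Gata3 had a TPM of 33.1 to 38.1 in hSKP2-KI and 16.9 to 22.9 in WT libraries (log2 difference 0.82, limma adjusted p = 0.000777). Klf5 had 35.4 to 45.2 and 14.0 to 25.4 (1.00, limma adjusted p = 0.0022). Both remained called after median-ratio scaling (0.56 and 0.74, limma adjusted p = 0.00249 and 0.0101), where 6.92% of all tested genes were called higher. Pparg, which drives uroplakin transcription in the bladder, had 2.89 to 5.01 in hSKP2-KI and 1.92 to 4.03 in WT (0.30, limma adjusted p = 0.227). Foxa1 had 186 to 223 and 197 to 238 (-0.06, limma adjusted p = 0.599). It was called lower after median-ratio scaling (-0.33, limma adjusted p = 0.0342), where 4.25% of all tested genes were called lower.

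Of 7 urothelial differentiation and surface genes, 5 were tested and 3 were higher (Krt7, Krt4 and Psca), where 32.7% of all tested genes were called higher. The median of the 5 was 0.92. Krt4 and Psca remained called after median-ratio scaling, where 6.92% of all tested genes were called higher. Krt4, a keratin of stratified internal epithelia, had a TPM of 215, 239.6, 163 and 118 in hSKP2-KI replicates 1 to 4 and 25.2 to 45.5 in WT (log2 difference 2.38, limma adjusted p = 0.000162). Krt4 was thus lowest in replicate 4 among hSKP2-KI libraries, unlike Upk2 and Upk3a. Psca, a surface protein of urothelium and prostate, had 105, 48.1, 59.5 and 209 in hSKP2-KI replicates 1 to 4 and 12.7 to 30.3 in WT (1.86, limma adjusted p = 0.00856), and with replicate 4 left out and median-ratio scaling it was not called (1.21, adjusted p = 0.0768). The 4 proximal luminal and urethral genes reported here (Ly6d, Ly6a, Ppp1r1b and Wfdc2) were higher, with a median of 1.65, and after median-ratio scaling 4 of 4 were called. The shares of all tested genes called higher were again 32.7% and 6.92%. With hSKP2-KI replicate 4 also left out after that scaling, 3 of 4 were called, where 4.10% of all tested genes were called higher. Ppp1r1b was then not called (0.96, limma adjusted p = 0.0635).

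Counts for the other cell types are given for comparison, and differences between lists were not tested. Over all tested genes, 32.7% were called higher and 1.23% lower as deposited. The share called higher was 22.0% without hSKP2-KI replicate 4 and 6.92% after median-ratio scaling. Without hSKP2-KI replicate 4, 126 of 13080 tested genes were called lower. Of 4 basal epithelial genes 2 were higher and of 5 general epithelial genes 3 were. Without hSKP2-KI replicate 4 the counts were 2 and 1, and after median-ratio scaling with all libraries 0 of either list were called. The 5 smooth muscle, 4 fibroblast and 3 endothelial markers were all higher as deposited, 5, 3 and 2 of them were without hSKP2-KI replicate 4, and 2, 1 and 1 were after median-ratio scaling. Of the 3 ventral secretory genes Spink1 was lower as deposited (log2 difference -0.76, limma adjusted p = 0.0219) and 0 were called after median-ratio scaling. Of the markers of other prostate lobes, Tgm4 and Msmb were higher as deposited and 0 of these 2 after median-ratio scaling. Ptprc and the 3 adipocyte markers were not called with all libraries, but without hSKP2-KI replicate 4 the adipocyte marker Cfd was lower (log2 difference -1.92, limma adjusted p = 0.0222), and of 4 skeletal muscle markers tested 1 was higher. The part of any of these cell types in the differences of Upk1b and Upk2 was not tested.

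**Figure D5:**
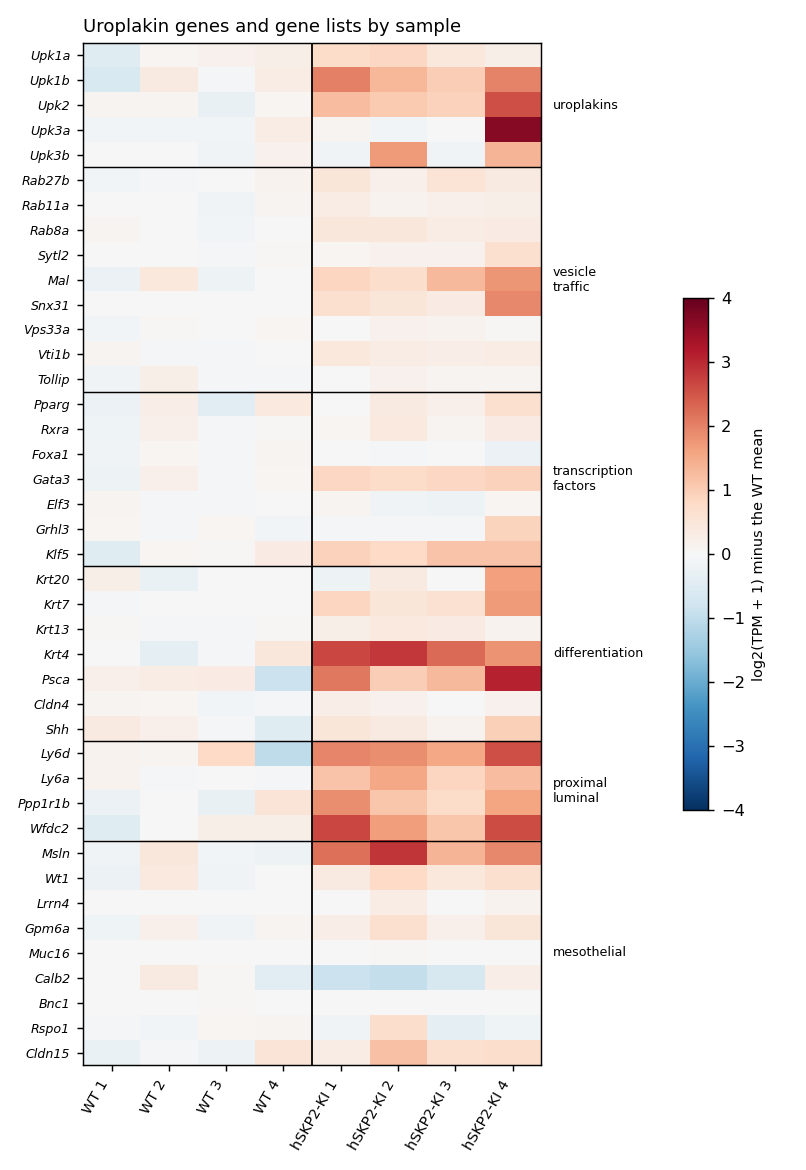
Heat map of log2(TPM + 1) in each of the 8 libraries minus the WT mean, for the uroplakin genes and the vesicle traffic, urothelial, proximal luminal and mesothelial lists. Upk1b and Upk2 are above the WT mean in all 4 hSKP2-KI libraries, and Upk3a is darkest in replicate 4.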

How the data were processed

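Ventral prostate RNA of 4 hSKP2-KI and 4 WT mice was sequenced with 1 library per mouse. Read trimming, quality checks and mapping were done with CLC software, whose version, annotation and counting options are not given in the sources used here; the submitters' processing notes name mm10 and GRCm38. The authors deposited TPM per gene, which sums to 1000000 in each library and keeps no read depth, and the table holds 0 columns of other samples.

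Genotype was taken from the sample labels. For the 13080 genes that reached a TPM of 1 in 4 or more libraries, limma 3.58.1 (R 4.3.3, trended variance) was run on log2(TPM + 1), with Benjamini-Hochberg adjustment and a threshold of 0.05. Members under that minimum were compared by a two-sided exact permutation test (scipy 1.17.1, Python 3.11.15). The fit was tested on simulated data. Figures were drawn with matplotlib 3.10.9.

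The named genes were the 5 members, the marker lists, the 5 genes nearest to each member and the 10 genes with the largest excess of hSKP2-KI replicate 4. Skp2, Pbsn and Gm52194 were named outside that rule. Members and lists were chosen with earlier results of these data known. Alternatives were a pseudocount of 0.1, no minimum, median-ratio scaling, quantile normalization, leaving out each library, robust variance moderation, a replicate block, and rescaling after removal of the top 20 genes. Median-ratio scaling without hSKP2-KI replicate 4 was added after seeing the data. Positions and promoter windows are from RefSeq, and 3 of 5 members matched the promoter table. Promoters of Upk1b and Upk2 were not used here. No batch is given by the labels. 1 listed marker gene is not reported here.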

Additional observations from a re-analysis of the deposited data

Results flagged for a closer look

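In 140 groups of 4 libraries (a gene in a genotype), 14 had a library farther from the others than Dixon's 95% critical value of 0.829 on the log2(TPM + 1) scale, and chance alone marks about 5% of such groups. Among the members, hSKP2-KI replicate 4 was far above its group for Upk3a (a TPM of 12.5, others 0 to 0.161), WT replicate 4 was above its group for Upk3a (0.312, others listed at 0, where any value above 0 passes by construction), and WT replicate 3 was below its group for Upk2 (0.983, others 1.58 to 1.67). The low Upk2 value widens the WT spread and also enlarges the genotype difference. Without WT replicate 3 the log2 difference of Upk2 was 1.34 (limma adjusted p = 0.0223), against 1.44 with all libraries (limma adjusted p = 0.00764).

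Among the listed markers, hSKP2-KI replicate 4 was high for Tnnt3 (26.5) and Myh1 (25.8), hSKP2-KI replicate 1 was high for Epcam (439) and for Tgm4 (77.5, others 4.99 to 6.74), and hSKP2-KI replicate 3 was high for Sbp (218476). WT replicate 1 was high for Elf3 (36.8), WT replicate 2 for Msln (0.652) and WT replicate 4 for Tagln (940.3). WT replicate 4 was low for Psca (12.7), and WT replicate 3 was low for Krt18 (507) and Adipoq (11.2).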

How the results depend on the processing

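As deposited, 4433 genes differed (4272 higher and 161 lower). The number was 1461 after median-ratio scaling (905 higher and 556 lower), 1317 after quantile normalization (709 and 608), 1321 after rescaling without the 20 most abundant genes (887 and 434), 833 with median-ratio scaling and without hSKP2-KI replicate 4 (536 and 297), and between 2993 and 4677 with each library left out in turn. The log2 difference of Upk1a lost its call at 0.56 with no minimum on TPM, 0.29 after median-ratio scaling, 0.30 after quantile normalization, 0.31 after rescaling, and 0.41 after median-ratio scaling without hSKP2-KI replicate 4, and it ranged from 0.39 to 0.66 with each library left out. Upk2 lost its call after quantile normalization (1.14, limma adjusted p = 0.0539), and Upk1b kept its call in all of these. Rab11a turned to -0.052 after median-ratio scaling, -0.048 when hSKP2-KI replicate 4 was also left out, -0.014 after quantile normalization and -0.031 after rescaling. The cause of these changes was not tested. The labels do not say whether samples of the same replicate number share anything else. Samples of the same number correlated at 0.22, -0.11, 0.17 and -0.01 after subtracting genotype means, across genes, which does not settle it. The replicate block gave 5128 genes, with Upk1a at 0.56, and changed the call of none of the 3 tested members. TPM gives no counts, so the error of low values such as those of Upk3a and Upk3b is unknown.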
